A study of Mus musculus with 18 samples.

Results

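The genes here are 9 mouse liver genes listed as dependent on growth hormone acting through the transcription factor STAT5, a dependence not tested here. They are Hsd3b5, Elovl3, Cyp7b1, Cyp2d9, Cyp17a1, A1bg, Cux2, Bcl6 and Socs2, out of 22180 genes that had a probe of their own on the array. They were chosen by name for that biology, with earlier results of these data known. Each was read from a probe annotated to that gene alone. Where a gene had several such probes, as Socs2 did, the probe with the highest mean over the 18 arrays was used.

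Growth hormone binds its receptor on hepatocytes, the receptor activates the kinase JAK2, and JAK2 phosphorylates STAT5, which enters the nucleus and turns genes on. Male mice release the hormone in separated pulses and females release it more continuously, so that STAT5 acts in bursts in male liver and one set of genes is expressed mainly in males and another mainly in females. Hsd3b5, Elovl3, Cyp7b1 and Cyp2d9 are known as male-predominant genes, A1bg and Cux2 as female-predominant ones. Socs2 is induced by the hormone and dampens its receptor's signalling, and Bcl6 is a repressor that binds many of the sites STAT5 binds.

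The study asked how the fat content of the diet changes what 2 perfluorinated compounds, PFOS and PFNA, do to the mouse liver. PFOS carries a sulfonic acid head group and PFNA a carboxylic acid one. Male C57BL6 mice entered the experiment at 6 weeks of age, ate their diet freely for 12 weeks and were killed at 18 weeks. Liver RNA was measured on gene-level arrays with 3 biological replicates in each of 6 groups. On the low-fat diet, with 10% of energy from fat, the groups were L-PFOS and L-PFNA, which ate the compound in that diet, and the LFD controls, which ate it without a compound. On the high-fat diet, with 45% of energy from fat, the groups were H-PFOS, H-PFNA and the HFD controls. The dose of either compound is not given in the sources used here. No group carried a genetic change, and the tissue was whole liver, so fewer cells of a type and less RNA per cell cannot be told apart in any value below.

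Values are log2 signals, a scale on which a difference of 1 is a doubling, and the middle probe of an array had a log2 signal between 4.43 and 4.59. The number of arrays limits the precision. Each p-value weighs a difference against a spread estimated for the probe over all 6 groups. Groups outside a comparison therefore affect its p-value and interval. Of 8 hepatocyte markers, Alb varied least over the 18 arrays, between 13.81 and 13.95, Hnf4a lay between 9.89 and 10.96 and Tat between 12.01 and 13.06. None of the 8 passed in a single exposure. Pooled over compounds and diets 2 were lower in exposed livers, with differences of -0.28 in Apoa1 and -0.30 in Serpina1a (adjusted p = 0.0241 and 0.0299 in limma). Without array 3 of L-PFOS and array 3 of H-PFNA these were -0.26 and -0.29 (adjusted p = 0.0379 and 0.0422 in limma). The mean over the 8 markers lay between 11.6 and 12 in every group. Array 3 of L-PFOS and array 3 of H-PFNA stood apart from the other arrays of their groups. They did so in Hsd3b5 and in the PPARA target genes described below. Calls that touch those groups are given with and without them. Because Hsd3b5 helped to set these arrays apart, leaving them out lowers its spread by construction. Hsd3b5 results without them are therefore no independent support. The same holds for the PPARA target genes and for genes that follow either of these signals. Array 3 of L-PFNA was also the lowest of its group in Hsd3b5, and was not left out with them. Throughout, a gene is said to have risen or fallen only where its adjusted p in limma was under 0.05, with the adjustment over all 34472 probes.

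Promoter sequence from RefSeq, on build GRCm38.p6, was at hand for 5 of the 9 genes, with 7 starts between them. Each stretch runs from 250 bases before to 50 bases after the start of transcription, and is written along the gene's own strand. The letters searched were the core of the STAT5 motif, TTC, then 3 bases of any kind, then GAA, which reads the same on both strands and does not overlap another motif searched. Among 32851 promoters of this length in the mouse table, 2726 held it, or 8.3%. Shown are the promoters of Hsd3b5 (chr3:98645485-98645784, minus strand) and Cyp2d9 (chr15:82452127-82452426, plus strand), the 2 genes with a promoter here that changed under PFOS. The promoter of Bcl6 (chr16:23981234-23981533, minus strand) is shown because it held the motif most often, and capitals mark the motif.
Hsd3b5: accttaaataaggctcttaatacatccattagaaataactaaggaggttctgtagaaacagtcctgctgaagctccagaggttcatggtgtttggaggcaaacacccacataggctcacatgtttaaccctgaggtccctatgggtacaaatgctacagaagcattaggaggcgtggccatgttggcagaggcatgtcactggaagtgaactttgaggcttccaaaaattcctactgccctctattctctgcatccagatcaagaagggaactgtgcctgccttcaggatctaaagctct
Cyp2d9: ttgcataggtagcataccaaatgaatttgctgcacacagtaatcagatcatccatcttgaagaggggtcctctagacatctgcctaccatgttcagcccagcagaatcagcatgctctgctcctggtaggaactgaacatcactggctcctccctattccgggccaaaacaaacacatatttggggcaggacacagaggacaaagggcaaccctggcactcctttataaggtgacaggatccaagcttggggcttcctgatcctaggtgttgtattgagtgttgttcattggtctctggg
Bcl6: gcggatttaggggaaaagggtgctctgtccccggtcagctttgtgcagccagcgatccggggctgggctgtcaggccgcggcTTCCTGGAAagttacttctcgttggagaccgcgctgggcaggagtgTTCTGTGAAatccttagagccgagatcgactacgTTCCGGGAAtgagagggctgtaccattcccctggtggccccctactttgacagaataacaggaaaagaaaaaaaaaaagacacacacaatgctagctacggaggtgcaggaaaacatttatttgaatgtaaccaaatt
In the Bcl6 stretch the motif stood at 3 places relative to the start, as TTCCTGGAA from -168 to -160, TTCTGTGAA from -122 to -114 and TTCCGGGAA from -88 to -80. The other Bcl6 start held 1 copy, and so did A1bg. The Hsd3b5 and Cyp2d9 stretches held none, and neither did the Cux2 starts. These are matches of letters in a short window and nothing more.

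**Figure D1:**
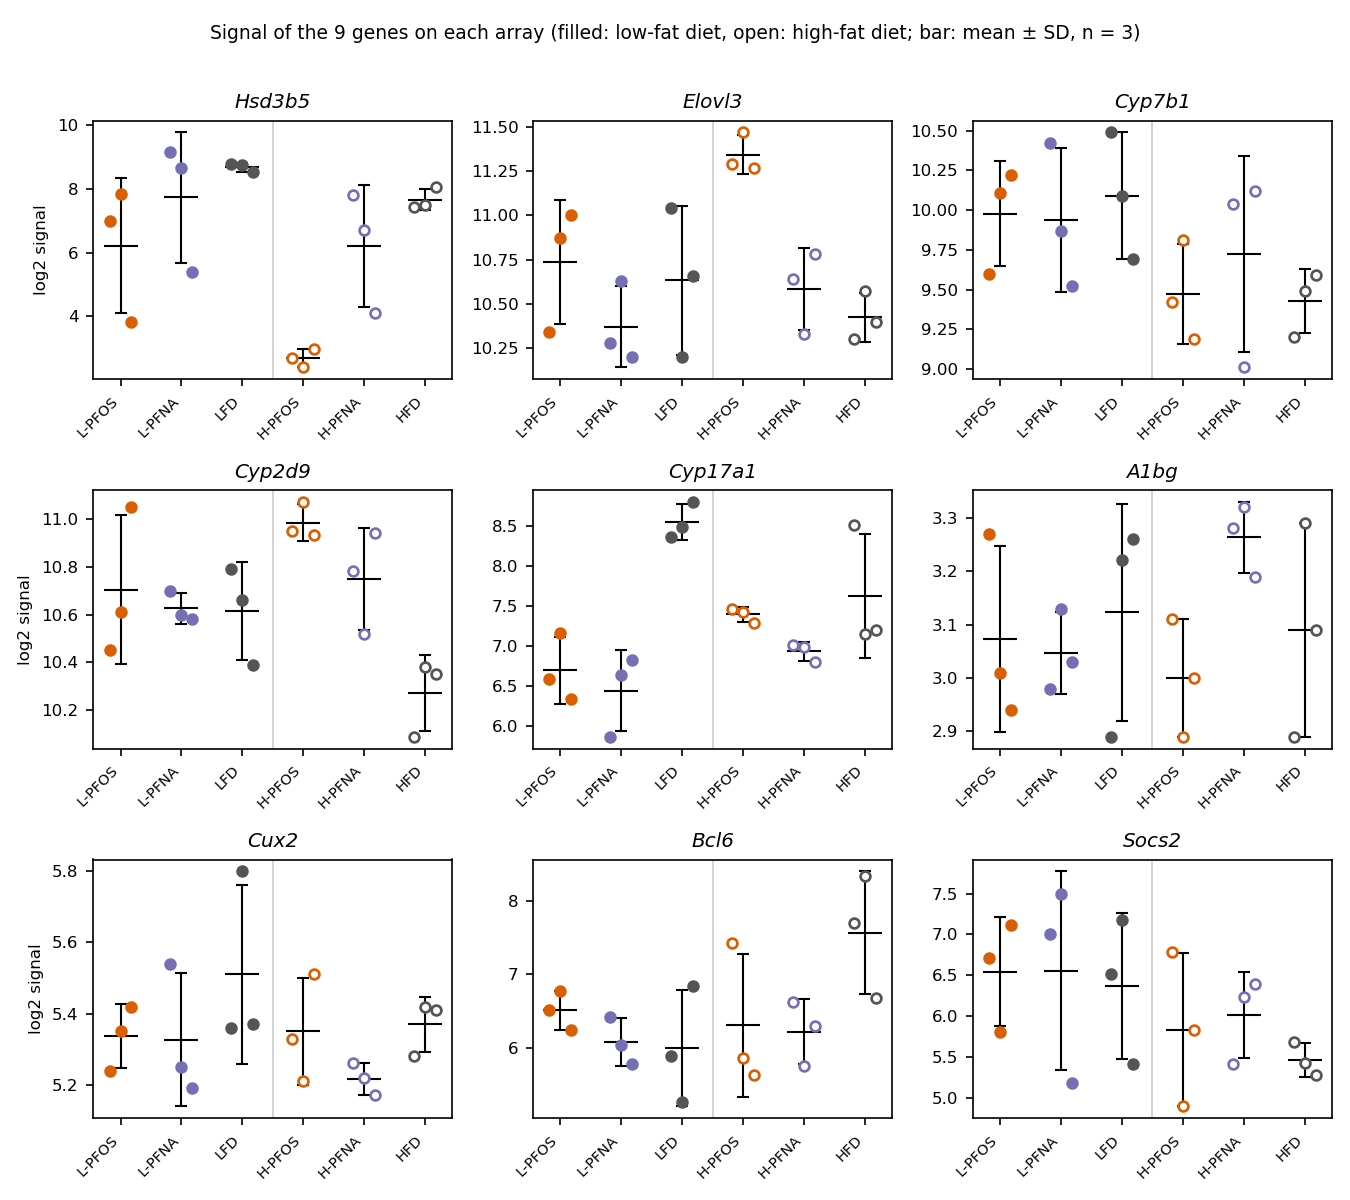
Log2 signal of each of the 9 genes (vertical axis, scaled separately in each panel) in the 6 groups, with 1 point per array and bars for the mean ± SD of 3 arrays. Hsd3b5 lay between 2.39 and 2.96 on the 3 H-PFOS arrays, below every other array, and Cyp17a1 lay between 5.86 and 7.16 on the exposed low-fat arrays against 8.37 to 8.81 on the LFD arrays.

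Across the 4 exposures, 36 tests were made on the 9 genes and 5 passed. Under PFOS on the high-fat diet, Hsd3b5 fell while Elovl3 and Cyp2d9 rose, so that 3 genes known as male-predominant did not all move one way. On the low-fat diet only Cyp17a1 passed, and it fell with both compounds. Cyp7b1, A1bg, Cux2, Bcl6 and Socs2 passed in none of the 4 exposures.

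These counts were read against all 34472 probes. Because the genes were chosen with earlier results of these data known, the shares describe the list and do not test it. In L-PFOS 1 of the 9 genes passed, a fall, where 0.389% of all probes passed and 0.107% fell. In L-PFNA 1 of 9 passed, also a fall, where 0.566% of all probes passed and 0.191% fell. In H-PFOS 3 of 9 passed, where 1.02% of all probes did, and of these 2 rose, beside 0.632%, and 1 fell, beside 0.389%. In H-PFNA limma called 0 of the 9, beside 0.113% of all probes, and 3 genes had an unadjusted p under 0.05, beside 9.77%. The median difference over the 9 genes was -0.05 in L-PFOS, -0.15 in L-PFNA, -0.02 in H-PFOS and 0.16 in H-PFNA, and over all probes it lay between -0.02 and -0.01. Exposed and control arrays did not overlap for 2 of the 9 genes in L-PFOS, 1 in L-PFNA, 3 in H-PFOS and 4 in H-PFNA, beside 15.7%, 19.4%, 18.4% and 13.7% of all probes.

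Hsd3b5, a 3-ketosteroid reductase of male mouse liver, was the member with the widest range, 2.39 to 9.15 over the 18 arrays. Its log2 signal was 2.68, 2.39 and 2.96 on the 3 H-PFOS arrays, 7.82, 6.71 and 4.10 on the H-PFNA arrays, and 7.43, 7.51 and 8.05 on the HFD arrays. All H-PFOS arrays were far below all HFD arrays, while the H-PFNA arrays were spread out and 1 of them exceeded 2 of the controls. The difference of H-PFOS from HFD was -4.99 on the log2 scale, with a standard error of 0.99, a 95% interval of -7.07 to -2.90 and an adjusted p of 0.0255 in limma. The H-PFOS signals lay below the median of their arrays, so the size of the fall is one of array signal near its lower end. The adjusted p rose to between 0.0567 and 0.0869 without any one of the 3 H-PFOS or 3 HFD arrays. It was 0.000795 without the 2 arrays that stood apart, neither of which is in this comparison. Leaving them out lowers the Hsd3b5 spread by construction, so that value is no added support. The hepatocyte marker mean lay below that of HFD on all H-PFOS arrays, at 11.6 to 11.7 against 11.8 to 12. Its part in the Hsd3b5, Elovl3 and Cyp2d9 calls was not tested. In H-PFNA the difference from HFD was -1.45 (adjusted p = 0.688 in limma), and it was -0.40 (adjusted p = 0.917) without those 2 arrays.

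On the low-fat diet, Hsd3b5 had log2 signals of 7, 7.83 and 3.83 in L-PFOS, 9.15, 8.67 and 5.38 in L-PFNA, and 8.78, 8.74 and 8.52 in the LFD controls. The L-PFOS arrays all lay below the controls, and in L-PFNA 1 array was below, 1 was above and 1 was among them. Neither exposure passed the test. L-PFOS differed from LFD by -2.46 (adjusted p = 0.326 in limma), and by -1.26 (adjusted p = 0.523) without the 2 arrays that stood apart. L-PFNA differed by -0.95 (adjusted p = 0.76), and by 0.23 (adjusted p = 0.971) without its array 3, so that 1 array set the direction. The spread within the exposed groups was wide, with an SD of 2.11 in L-PFOS and 2.05 in L-PFNA against 0.14 in LFD. Of the 12 exposed arrays on both diets, 8 were below the lowest of the 6 control arrays, which was 7.43.

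Pooled over compounds and diets, Hsd3b5 was lower in exposed livers, with a difference of -2.46, a standard error of 0.61 and an adjusted p of 0.0254 in limma. Without the 2 arrays that stood apart it was -1.90 (adjusted p = 0.0152). Under limma's trend and robust variances the adjusted p was 0.0579. Leaving out LFD array 1, 2 or 3 gave 0.0569, 0.0611 and 0.0502, and leaving out HFD array 2 or 3 gave 0.051 and 0.068. Hsd3b5 and Cyp17a1 were the 2 of 9 genes that passed this pooled test, both lower, where 5.01% of all probes passed and 2.02% were lower.

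A pair of further probes is annotated jointly to Hsd3b4, Gm10681 and Hsd3b5, and both probes carried the same values. Their log2 signal was 4.42, 4.17 and 4.03 in H-PFOS, 5.91, 5.05 and 4.06 in H-PFNA, and 5.60, 5.81 and 6.30 in HFD. H-PFOS again lay wholly below HFD, but the difference of -1.70 did not pass (adjusted p = 0.139 in limma). The 5 other Hsd3b genes with a probe of their own differed by between -0.24 and 0.02 in H-PFOS against HFD, and none passed. The fall was called on the probe of Hsd3b5, and on none of those of its relatives.

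The gene whose pattern was most like that of Hsd3b5, among 18642 genes searched over the 18 arrays, was Slco1a1, a sinusoidal organic anion carrier and also a male-predominant gene (Pearson correlation 0.962, described without a test). Entpd8 followed at 0.948 and Lrrc3 at 0.936. Slco1a1 had log2 signals of 7.19, 5.70 and 5.43 in H-PFOS, 9.64, 8.95 and 6.97 in H-PFNA, and 9.70, 10.15 and 10.07 in HFD. Its difference in H-PFOS against HFD was -3.87, with a standard error of 0.65 and an adjusted p of 0.00936 in limma. All points share the same 18 livers, so the likeness includes the differences between groups.

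The arrays with the lowest Hsd3b5 were also those with the highest targets of PPARA, the receptor that turns on fatty acid oxidation in hepatocytes. The mean log2 signal of 7 PPARA target genes was 11.1, 11.4 and 11.9 in H-PFOS, 11.3 on array 3 of L-PFOS and 11.4 on array 3 of H-PFNA. On all other arrays it lay between 10 and 10.4. Hsd3b5 was between 2.39 and 4.10 on those 5 arrays. Array 3 of L-PFNA departed from this, with Hsd3b5 at 5.38 and a PPARA target mean of 10.35. Targets of CAR, a receptor for foreign compounds, were high in every exposed group: the mean over 8 genes was 9.3 to 9.53 in H-PFOS, 9.16 to 10.3 in H-PFNA, 9.24 to 10.3 in L-PFOS and 9.71 to 10.2 in L-PFNA, against 7.73 to 8.04 in LFD and 7.92 to 8.11 in HFD. The part of either receptor in the Hsd3b5 signal was not tested.

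**Figure D2:**
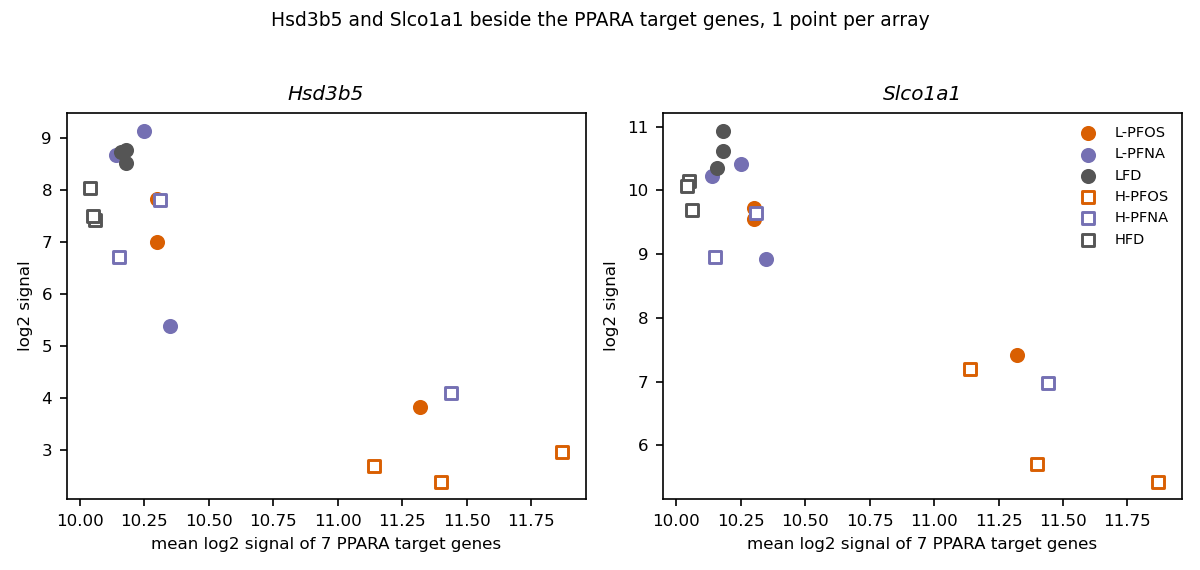
Log2 signal of Hsd3b5 (left) and Slco1a1 (right) on the vertical axes against the mean log2 signal of 7 PPARA target genes on the horizontal axis, with 1 point per array, circles for the low-fat diet and squares for the high-fat diet. The 5 arrays with a PPARA target mean above 11 hold the lowest signals of both genes, and the LFD and HFD control arrays sit at the upper left.

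Elovl3, which lengthens very long chain fatty acids, rose in H-PFOS. It had log2 signals of 11.29, 11.47 and 11.27 in H-PFOS, 10.64, 10.33 and 10.78 in H-PFNA, and 10.30, 10.57 and 10.40 in HFD. The H-PFOS arrays were above all other 15 arrays of the study, and the H-PFNA arrays overlapped the controls. H-PFOS exceeded HFD by 0.92, with a standard error of 0.21, an interval of 0.49 to 1.35 and an adjusted p of 0.039 in limma. That p was 0.0815, 0.139 and 0.101 without H-PFOS array 1, 2 or 3, and 0.107, 0.0871 and 0.112 without HFD array 1, 2 or 3. It was also 0.0522 without L-PFNA array 1 and 0.0503 without LFD array 3. Without the 2 arrays that stood apart it was 0.0213. Neither of them is in this comparison and the difference stayed at 0.92, so that value is no added support.

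Among low-fat livers, Elovl3 had log2 signals of 10.34, 10.87 and 11.00 in L-PFOS, 10.28, 10.63 and 10.20 in L-PFNA, and 11.04, 10.20 and 10.66 in LFD. Those groups overlapped, with a difference of 0.10 in L-PFOS and -0.26 in L-PFNA. Of 4 other elongases measured, Elovl1 rose by 0.72 in L-PFOS and by 0.76 in L-PFNA (adjusted p = 0.0326 and 0.0177 in limma). None of the 4 passed in H-PFOS or H-PFNA. In H-PFOS against HFD they differed by between 0.03 and 0.93, the highest as large as the 0.92 of Elovl3. The size of the Elovl3 rise was therefore not particular to it among the elongases. The Elovl1 difference in L-PFOS was 0.67 (adjusted p = 0.0398) without the 2 arrays that stood apart.

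Cyp2d9, a steroid 16-alpha-hydroxylase of male mouse liver, also rose in H-PFOS. Its log2 signal was 10.95, 11.07 and 10.93 in H-PFOS, 10.78, 10.52 and 10.94 in H-PFNA, and 10.09, 10.38 and 10.35 in HFD. All arrays of both exposed groups were above the controls. The difference was 0.71 in H-PFOS, with a standard error of 0.16, an interval of 0.38 to 1.04 and an adjusted p of 0.0396 in limma, and 0.47 in H-PFNA (adjusted p = 0.309). For H-PFOS the adjusted p was 0.0606 with the compared groups fitted alone. It was 0.0827, 0.138 and 0.102 without H-PFOS array 1, 2 or 3, and 0.123, 0.0876 and 0.0914 without HFD array 1, 2 or 3. It was 0.0533, 0.0545 and 0.0542 without L-PFNA array 1, 2 or 3, and 0.0518 without LFD array 2. Without the 2 arrays that stood apart it was 0.00785. Neither of them is in this comparison and the difference stayed at 0.71, so that value is no added support.

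In mice on the low-fat diet, Cyp2d9 had log2 signals of 10.45, 10.61 and 11.05 in L-PFOS, 10.70, 10.60 and 10.58 in L-PFNA, and 10.79, 10.66 and 10.39 in LFD, with all groups overlapping. Cyp2d9 belongs to a cluster of similar genes, whose probes may catch one another's RNA. The 8 relatives measured differed by between -1.33 and 0.23 in H-PFOS against HFD; none rose, and Cyp2d40, another male-predominant member of the family, fell by 1.33 (adjusted p = 0.0359 in limma). The rise was called on the Cyp2d9 probe and on none of the 8 relatives.

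Cyp7b1, the oxysterol 7-alpha-hydroxylase that feeds the alternative route to bile acids, passed in no comparison. Its log2 signal was 9.42, 9.81 and 9.19 in H-PFOS, 10.04, 9.01 and 10.12 in H-PFNA, and 9.20, 9.49 and 9.59 in HFD. On the low-fat diet it was 9.60, 10.11 and 10.22 in L-PFOS, 10.42, 9.87 and 9.52 in L-PFNA, and 10.49, 10.09 and 9.69 in LFD. Exposed and control arrays overlapped on both diets. The HFD controls all lay below the LFD controls, by -0.66, which did not pass (adjusted p = 0.766 in limma).

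Cyp17a1, the steroid 17-alpha-hydroxylase and 17,20-lyase, fell with both compounds on the low-fat diet. Its log2 signal was 6.59, 7.16 and 6.33 in L-PFOS, 5.86, 6.63 and 6.82 in L-PFNA, and 8.37, 8.49 and 8.81 in LFD. Every exposed array was more than 1 log2 unit below every control. L-PFOS differed from LFD by -1.86, with a standard error of 0.31, an interval of -2.51 to -1.21 and an adjusted p of 0.0145 in limma, and L-PFNA by -2.12, with an adjusted p of 0.00614. The L-PFNA call held in each of 18 fits that left out 1 array, with adjusted p between 0.000641 and 0.035. The L-PFOS value was 0.0573 with its 2 groups fitted alone, and 0.0827, 0.0564 and 0.0591 without L-PFOS array 1, LFD array 2 or LFD array 3. Without the 2 arrays that stood apart, the L-PFOS difference was -1.68 (adjusted p = 0.0293) and the L-PFNA p was 0.00411. The L-PFNA comparison holds neither of these arrays, so its value is no added support.

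On the high-fat diet Cyp17a1 had log2 signals of 7.47, 7.43 and 7.29 in H-PFOS, 7.01, 6.99 and 6.80 in H-PFNA, and 8.52, 7.15 and 7.20 in HFD. The H-PFNA arrays were all below the controls, by -0.69 (adjusted p = 0.482 in limma), and the H-PFOS arrays lay within the range of the controls, at -0.23 (adjusted p = 0.825). One HFD array, array 1, was at the level of the LFD controls and the others were more than 1 log2 unit below it. Without that array the difference was 0.22 in H-PFOS (adjusted p = 0.803) and -0.24 in H-PFNA (adjusted p = 0.852), so it set the direction in H-PFOS and most of the size in H-PFNA. The HFD mean was 0.93 below the LFD mean (difference -0.93, adjusted p = 0.679). The difference between diets in the PFOS effect was 1.64 (adjusted p = 0.739 in limma) and in the PFNA effect 1.43 (adjusted p = 0.942), so it was not established that the fall was particular to the low-fat diet. Pooled over both compounds and diets, Cyp17a1 differed by -1.23 (adjusted p = 0.00111), and by -1.16 (adjusted p = 0.00275) without the 2 arrays that stood apart.

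Beside the Cyp17a1 calls, markers of other liver cells had these levels on the low-fat diet. The mean log2 signal of 6 endothelium markers was 8.32 to 8.66 in L-PFOS and 8.57 to 8.63 in L-PFNA, against 7.74 to 8.27 in LFD, and that of 6 Kupffer cell markers was 7.68 to 8.39 and 7.94 to 8.38, against 7.19 to 7.84. The endothelium means did not overlap those of LFD, while the Kupffer means overlapped them in L-PFOS and not in L-PFNA. For 6 stellate cell markers the mean was 7.75 to 7.94 in L-PFOS and 7.54 to 7.85 in L-PFNA, against 7.44 to 7.59. For 5 lymphocyte markers it was 4.45 to 4.82 and 4.66 to 4.84, against 4.36 to 4.51. The stellate means overlapped those of LFD only in L-PFNA, and the lymphocyte means only in L-PFOS. Means of 4 cholangiocyte markers overlapped in both. The hepatocyte marker mean was 11.6 to 11.8 in L-PFOS and 11.8 in L-PFNA, against 11.8 to 12 in LFD. None of these markers passed the test by itself in L-PFOS or L-PFNA. Their part in the Cyp17a1 signal was not tested.

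**Figure D3:**
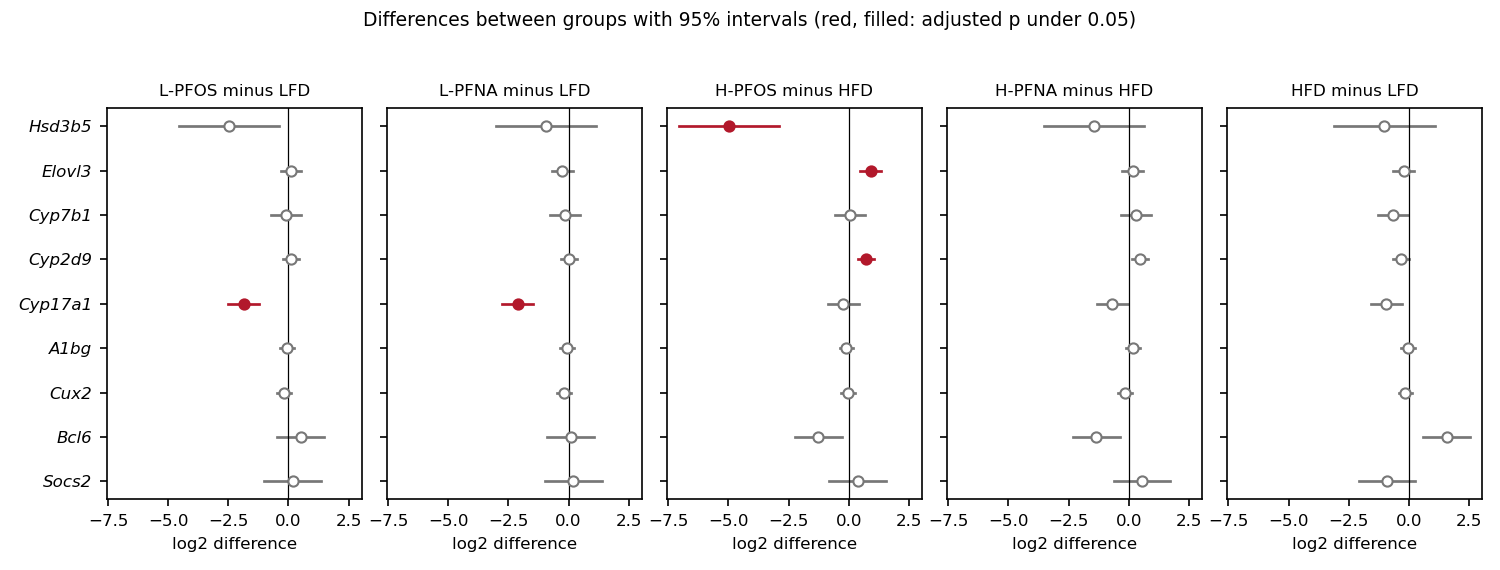
Log2 difference of each of the 9 genes (rows) in the 4 exposures against their diet control and in HFD against LFD (panels), with 95% confidence intervals on the horizontal axis. Filled red points passed at an adjusted p under 0.05: Cyp17a1 in L-PFOS and L-PFNA at -1.86 and -2.12, and Hsd3b5, Elovl3 and Cyp2d9 in H-PFOS at -4.99, 0.92 and 0.71.

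A1bg, a plasma protein, and Cux2, a transcription factor that represses male-predominant genes in female liver, varied little over these male livers. A1bg lay between 2.89 and 3.32 on all 18 arrays, below the median of the array, so its level in these livers could not be followed. Cux2 lay between 5.17 and 5.80, above the median of the array, but whether it was detected above background is unknown. Its log2 signal was 5.26, 5.22 and 5.17 in H-PFNA and 5.28, 5.42 and 5.41 in HFD, with no overlap, but the difference of -0.15 did not pass (adjusted p = 0.778 in limma). Neither gene passed in any comparison.

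Bcl6 passed in no comparison, and among the comparisons of 2 groups the control diets differed most. The log2 signals were 7.43, 5.86 and 5.63 in H-PFOS, 6.62, 5.75 and 6.29 in H-PFNA, and 7.70, 8.34 and 6.68 in HFD. In low-fat livers it was 6.52, 6.77 and 6.24 in L-PFOS, 6.42, 6.04 and 5.77 in L-PFNA, and 5.88, 5.26 and 6.84 in LFD. The HFD arrays held 2 of the highest 3 signals, while 1 HFD array, at 6.68, lay below 1 LFD array. HFD exceeded LFD by 1.58, with a standard error of 0.46, and this did not pass (adjusted p = 0.58 in limma). Against HFD, H-PFOS differed by -1.27 (adjusted p = 0.218) and H-PFNA by -1.35 (adjusted p = 0.318), the second without overlap. Against LFD, L-PFOS differed by 0.52 and L-PFNA by 0.08. The difference between diets in the effect was -1.78 for PFOS (adjusted p = 0.759) and -1.44 for PFNA (adjusted p = 0.943).

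Socs2 had log2 signals of 6.78, 4.90 and 5.83 in H-PFOS, 5.42, 6.23 and 6.40 in H-PFNA, and 5.69, 5.43 and 5.28 in HFD. Low-fat livers had 6.71, 5.81 and 7.12 in L-PFOS, 7, 7.49 and 5.18 in L-PFNA, and 6.52, 7.18 and 5.41 in LFD. The groups overlapped in every comparison, and arrays of 1 group differed by up to 2.31 in L-PFNA. HFD differed from LFD by -0.90 (adjusted p = 0.845 in limma). The second Socs2 probe was dimmer, at 4.52 to 5.69 over all arrays, and passed in no comparison.

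The diet alone moved no member past the test: HFD against LFD called 0 of the 9 in limma, beside 0.0029% of all probes, and 4 members had an unadjusted p under 0.05, beside 6.45%. Those were Cyp7b1, Cyp2d9, Cyp17a1 and Bcl6, the first 3 lower in HFD and Bcl6 higher. Groups did not overlap for 3 members, beside 10.4% of all probes. The controls of each diet serve 3 comparisons each, so these comparisons are not independent of those of the exposures. A test for any difference among the 6 groups passed for Hsd3b5 and Cyp17a1, 2 of 9, beside 0.96% of all probes.

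The compounds were set against each other within each diet, in 18 comparisons of the 9 genes. In H-PFNA against H-PFOS, limma called 0 of the 9, beside 0.0029% of all probes, and 2 had an unadjusted p under 0.05, beside 7.26%. Hsd3b5 was higher by 3.53 in H-PFNA, with an interval of 1.45 to 5.62 (adjusted p = 0.646), and Elovl3 differed by -0.76, with an interval of -1.19 to -0.33 (adjusted p = 0.646). Without the 2 arrays that stood apart, the Hsd3b5 difference was 4.59 and passed (adjusted p = 0.00676). Those arrays were set apart partly by Hsd3b5 itself, so this pass is no independent support. Without H-PFNA array 3 alone it was also 4.59 and did not pass (adjusted p = 0.108). In L-PFNA against L-PFOS, limma called 0 of the 9 and 0% of all probes, and none of the 9 had an unadjusted p under 0.05, beside 3.92% of all probes. The groups overlapped for all 9 genes on the low-fat diet, where 8.98% of all probes did not overlap, and 4 genes did not overlap on the high-fat diet, beside 10.3%. In L-PFNA against L-PFOS the interval of the difference ran from -0.57 to 3.60 for Hsd3b5, and from -0.91 to 0.39 for Cyp17a1. Differences of any size within those 95% intervals remain possible on the low-fat diet.

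Whether a compound's effect differed between diets was tested for each gene. In limma 0 of the 9 passed for PFOS and 0 for PFNA, beside 0% of all probes for either. At an unadjusted p under 0.05 there were 4 members for PFOS, beside 6.36% of all probes, and 2 for PFNA, beside 5.18%. For PFOS they were Elovl3 at 0.82, Cyp2d9 at 0.62, Cyp17a1 at 1.64 and Bcl6 at -1.78, each the effect on the high-fat diet minus that on the low-fat diet. For Hsd3b5 it was -2.53 (adjusted p = 0.806).

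RNA of the growth hormone pathway was read from 16 measured genes of a list of 18. The list held the receptor Ghr, Jak2, Stat5a, Stat5b, their outputs Igf1, Igfals, Cish and Socs3, and cofactors. Phosphorylation of STAT5 was not measured, so RNA levels of the pathway's genes do not show whether its signalling changed. None of the 16 passed in any of the 4 exposures or in HFD against LFD. The median difference was -0.01 in L-PFOS, 0.13 in L-PFNA, -0.10 in H-PFOS and 0.04 in H-PFNA. Over all probes it lay between -0.02 and -0.01. Igfbp2, a binding protein of the growth factor IGF1, differed by 1.15 in H-PFOS (adjusted p = 0.0818 in limma) and by 1.24 in H-PFNA (adjusted p = 0.141). The receptor Ghr differed by -0.55 in H-PFOS (adjusted p = 0.0818 in limma) and by -0.10 in H-PFNA (adjusted p = 0.888). On the low-fat diet Ghr differed by -0.25 in L-PFOS and -0.03 in L-PFNA. Pooled over compounds and diets, 1 of the 16 rose and none fell, beside 5.01% of all probes that passed this test. The 1 was the transcription factor Cux1, by 0.32 (adjusted p = 0.0261 in limma), and by 0.29 (adjusted p = 0.0439) without the 2 arrays that stood apart.

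Other male-predominant genes, 20 measured of 22 listed, also moved in both directions. In H-PFOS 4 fell and 2 rose: Slco1a1 by -3.87, the urinary protein gene Mup21 by -1.72, the protease inhibitor gene Serpina1e by -1.54 and Cyp2d40 by -1.33, against the fatty acid hydroxylases Cyp4a12b at 2.01 and Cyp4a12a at 1.36. The list's median was -0.39 in H-PFOS. The same Cyp4a12 genes passed in H-PFNA, at 2.05 and 1.33, and in L-PFNA, at 0.90 and 1.07, and Cyp4a12a passed in L-PFOS at 1.03. Without the 2 arrays that stood apart, Cyp4a12b and Cyp4a12a in H-PFNA and Cyp4a12a in L-PFOS still passed, at 2.07, 1.29 and 1.06. No male-predominant gene of this list fell past the test in L-PFOS, L-PFNA or H-PFNA. Pooled over compounds and diets, 4 of the 20 fell: Slco1a1 by -1.96, Mup21 by -1.17, Serpina1e by -1.07 and C9 by -0.52. Another 4 rose: Cyp4a12b by 1.44, Cib3 by 1.35, Cyp4a12a by 1.20 and Keg1 by 1.04. Over all probes 5.01% passed this pooled test and 2.02% were lower. All of these genes still passed without the 2 arrays that stood apart. Leaving those arrays out can also lower the spread of genes that follow Hsd3b5 or the PPARA targets. Slco1a1 was then at -1.58 (adjusted p = 0.00231 in limma, against 0.00876 with all arrays). These passes are therefore no independent support. Cyp4a genes are also known to answer to PPARA.

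Female-predominant genes, 23 measured of 27 listed, passed in 3 of the 4 exposures. In L-PFOS 3 rose: Cyp2b9 by 2.52, Cyp3a44 by 1.76 and the fatty acid carrier Cd36 by 1.47. Without the 2 arrays that stood apart these were 2.51, 1.86 and 1.16, and all passed. In L-PFNA Cyp2b9 rose by 2.23 and Cyp3a44 by 1.77. In H-PFOS Acot3, an acyl-CoA thioesterase, rose by 1.48 and the oxysterol hydroxylase Cyp39a1 fell by 2.66, and in H-PFNA none passed. The list's median was 0.38 in L-PFOS, 0.41 in L-PFNA, 0.09 in H-PFOS and 0.14 in H-PFNA. Over all probes 0.389%, 0.566%, 1.02% and 0.113% passed, in that order. Pooled over compounds and diets, 5 of the 23 rose, Cyp2b9, Cyp3a44, Cd36, Tox and Acot3, and 1 fell, Cyp39a1. Over all probes 5.01% passed this pooled test and 2.02% were lower. Without the 2 arrays that stood apart Tox did not pass (adjusted p = 0.0565 in limma). Cyp3a44 differed by 1.49 in H-PFOS (adjusted p = 0.0596 in limma) and by 1.64 in H-PFNA (adjusted p = 0.0983), and no gene of this list passed the test of a difference between diets in either compound's effect. Cyp2b and Cyp3a genes are also known to answer to CAR and PXR, and Cd36 and Acot3 to PPARA, so their names in this list do not set them apart from the targets of those receptors. CAR targets rose in 4 of 8 measured genes in L-PFOS, 4 in L-PFNA, 2 in H-PFOS and 3 in H-PFNA, and PPARA targets in 3 of 7 in H-PFOS and in none elsewhere. With those 2 arrays left out, CAR targets rose in 6 of 8 in L-PFOS and 5 in H-PFNA, and PPARA targets in 1 of 7 in H-PFNA.

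**Figure D4:**
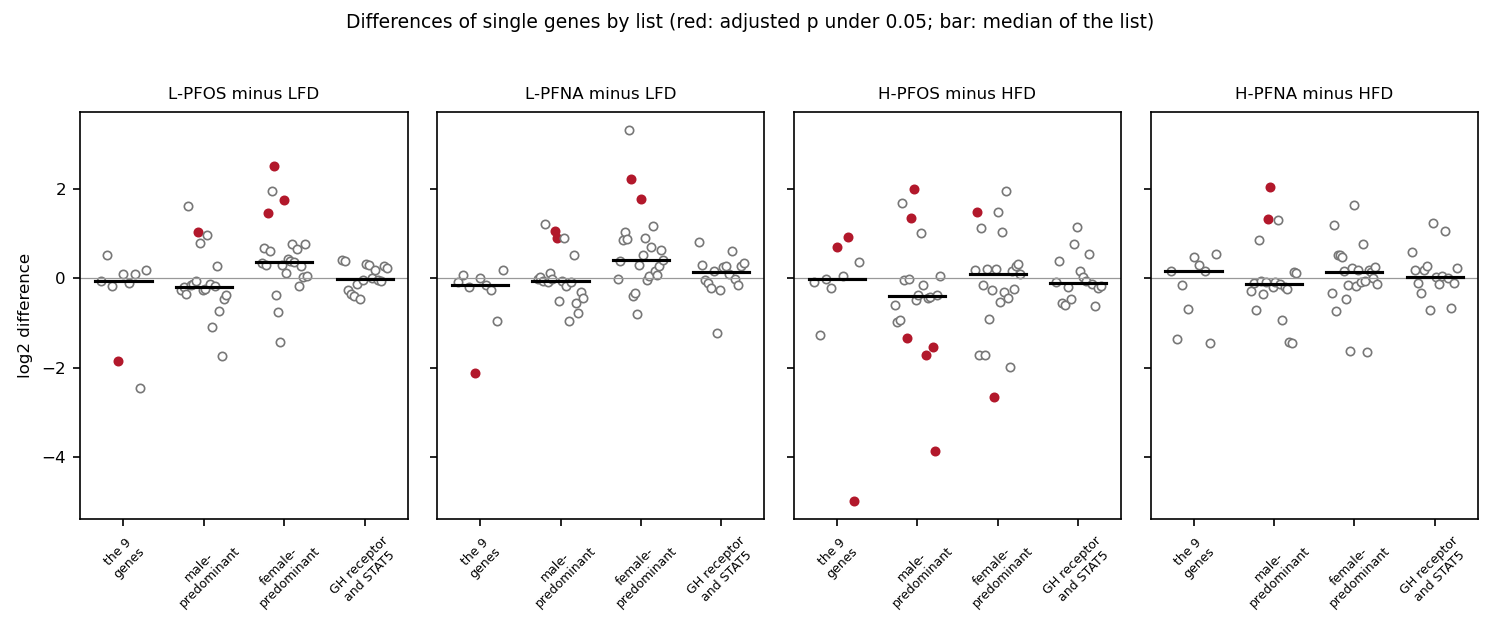
Log2 difference of single genes (vertical axis) in the 4 exposures (panels) for the 9 genes, 20 male-predominant genes, 23 female-predominant genes and 16 genes of the growth hormone pathway, with filled red points at an adjusted p under 0.05 and a bar at each median. In H-PFOS the male-predominant list holds calls on both sides of 0, and the pathway list holds none in any panel.

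Beside these lists, 9 acute phase genes gave no call in the 4 exposures, with a median difference of -1 in H-PFOS and -0.83 in H-PFNA, and 11 clock genes gave none either. Circadian and inflammatory states are known to touch several of the 9 genes, and their part here was not tested.

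The likeness of the other members was described in the same way, by the correlation over the 18 arrays. Elovl3 was nearest to Gemin2 (0.943), Cyp2d9 to Aadat (0.929) and Cyp7b1 to Ttc39c (0.833). Cyp17a1 was nearest to Ppargc1a (0.893), a coactivator of fasting metabolism, Nectin1 (0.827) and Ceacam1 (0.817). Bcl6 was nearest to Osbp (0.785), Socs2 to Trim9 (0.853), Cux2 to Vwa5b2 (0.773) and A1bg to Cmc2 (0.763), the last on a probe near the array's lower end.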

How the data were processed

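Liver RNA of 18 male mice was measured on arrays, 3 per group. Per the submitters' processing notes, the software was Transcriptome Analysis Console, with no version named. How background, normalization and probe summaries were handled by the authors is not stated. The deposited table holds 1 log2 value per probe and array; the base was read from the range (0.91 to 14.01) and is not stated in the labels. Detection against background is unknown.

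All 34472 probes were fitted without a filter, with limma 3.58.1 in R 4.3.3: 1 mean per group over 18 arrays, moderated variances (12 residual and 5.21 prior degrees of freedom), 10 contrasts and a moderated F test, Benjamini-Hochberg adjustment over all probes, calls under 0.05, and 95% intervals. Probes with 1 gene symbol numbered 23521, with several 1814 and with none 9137. Groups came from the labels. Pairs of arrays correlated at 0.9749 to 0.9913. The fit was tested on simulated data, in which a probe had the same spread in every group. That setting does not cover genes whose spread differed between groups, such as Hsd3b5.

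The 9 genes and the gene lists were chosen with earlier results of these data known. All 9 are named, and from each list the called genes, at most 6 per comparison, or the 2 with the largest difference where none was called. Alternatives were quantile normalization, a filter on dim probes, trend and robust variances, the compared groups alone, a replicate block, the mean of a gene's probes, each array left out, and 2 arrays left out together. Replicate numbers were not taken as pairs.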

Additional observations from a re-analysis of the deposited data

How the results depend on the processing

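Of 620 values of single members under the alternatives other than leaving out single arrays, 612 kept their direction or lack of a call and their side of the threshold, 5 lost it, 3 gained it and none reversed while called. The members called changed under 5 settings, beside leaving out single arrays. With the compared groups fitted alone, L-PFOS against LFD called 0 members and not 1, and H-PFOS against HFD 2 and not 3, losing Cyp2d9 (adjusted p = 0.0606). With a replicate block, H-PFOS against HFD called 1 member, Hsd3b5, and not 3 (Elovl3 had an adjusted p of 0.052 and Cyp2d9 of 0.0503 in limma), and the block changed no other call of a member. Of the 45 correlations between deviations of same-numbered arrays, 3 exceeded 0.1, the highest at 0.421 between array 3 of L-PFOS and array 3 of H-PFNA, with a median of -0.00119. Of the 18 arrays, 6 correlated best with arrays of their own number, so the numbers were not taken as pairs. Without L-PFOS array 3 and H-PFNA array 3, H-PFNA against H-PFOS called 1 member, Hsd3b5, and not 0. These arrays were set apart partly by Hsd3b5 itself. Without them the F test called 3 members and not 2, gaining Elovl3. With trend and robust variances, the F test called 1 member, Cyp17a1, and not 2. Leaving out 1 array at a time, the members called ranged from 0 to 1 in L-PFOS, 1 to 1 in L-PFNA, 0 to 3 in H-PFOS, 1 to 3 over any compound and 0 to 2 in the F test, and stayed at 0 in the other comparisons. Pooled over compounds and diets, Cyp2d9 had an adjusted p of 0.0655, and passed at 0.0314 with dim probes left out and at 0.0371 with trend and robust variances, under which Hsd3b5 did not pass (0.0579). Over all probes, calls in L-PFOS were 134, and 85 after quantile normalization, 6 with the compared groups alone, 270 without dim probes and 454 without the 2 arrays. In L-PFNA they were 195, and 591, 388 with trend and robust variances, and 593. In H-PFOS they were 352, and 794, 550 and 1011, and in H-PFNA 39, and 115, 120 and 148, with 6 for the compared groups alone. H-PFNA against H-PFOS called 1 probe, and 510 without the 2 arrays, the interaction of diet and PFOS 0 and 83, and the F test 331, and 717, 547 and 1686. A1bg was left out by the filter on dim probes. The cause of these changes was not tested beyond what fewer probes or arrays fix by construction. With 3 arrays a group and unknown background, small changes of dim genes such as A1bg were not detectable.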

Other observations

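Between arrays of the same group, Cyp7b1 and Cyp2d9 varied together. After each group's mean was taken off, their signals over the 18 arrays had a Pearson r of 0.792 (p = 4.29e-05, adjusted p = 0.00154) and a Spearman rho of 0.804 (p = 6.43e-05, adjusted p = 0.00231), by a two-sided exact permutation test within groups, adjusted over the 36 pairs of the 9 genes. Without the 2 arrays farthest from the median of Cyp7b1, r was 0.786. No other pair of the 9 genes passed. The arrays share their livers, RNA preparation and hybridization, whose part was not tested.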
